A study of Arabidopsis thaliana with 18 samples.

Results

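The mRNAs described here were abundant in wild-type Arabidopsis shoots and yet had the lowest polysomal relative to nonpolysomal signals. They are 150 of the 22746 probe sets of the Affymetrix ATH1 array. Among probe sets with a mean log2 signal of at least 7 in total RNA of the 3 wild-type samples (6003), those of plastid and mitochondrial genes, ribosomal protein genes and histones were left out, and the 150 with the lowest mean wild-type translation state were taken from the remaining 5703, which are called the pool below. Translation state (TL) is the log2 signal of polysomal RNA (PL) minus that of nonpolysomal RNA (NP) from the same plant sample, where NP includes monosomes. Because the arrays were normalized, a TL of 0 does not mean that an mRNA was divided equally between the fractions, and TL ranks mRNAs relative to each other. Total RNA (TC) was measured beside the fractions. The wild-type TL chose the members, so it is given as a description without a test, and wild-type samples are in every change between genotypes.

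The 18 arrays came from the aerial parts of seedlings grown for 10 to 12 days on agar with 1% sucrose, at 22 °C with a day of 16 h and a night of 8 h, and taken 6 h after the lights came on. The groups were wild type and rpl24b, each as PL, NP and TC, with 3 plant samples in each of the 6 groups, grown at different times with mutant and wild type side by side. The mutant carries the allele stv1-1 in the Ws ecotype, with a deletion of RPL24B and several neighbouring genes and a transgene for the small MYB protein CAPRICE at that locus. The labels give no ecotype for the wild type. The methods of the study place wild-type plants in Col-0. They also state that rpl24b was grown beside its corresponding wild type, without naming an ecotype there. Strain and genotype may therefore not be told apart. The TC signal of RPL24B was 9.98 to 10.27 in wild type and 3.44 to 3.79 in rpl24b. Of the tissue markers that could be named, the leaf gene RCA had a mean TC signal of 13.92 in wild type and 13.94 in rpl24b. The root gene EXPA7 had 3.89 and 3.91, and the seed storage gene CRUCIFERIN A had 4.96 and 5.66. CRUCIFERIN A varied widely between replicates, from 3.77 to 6.41 in wild type and from 3.72 to 7.79 in rpl24b, so the genotypes overlapped. The median NP signal of wild-type replicate 2 was 4.65, against 4.90 to 5.07 in the other PL and NP arrays. The median change in TL is also given without that sample, and the counts of members called with each replicate left out in turn. Most other counts and gene values are given only with it.

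An mRNA is translated by several ribosomes at once and then sediments with polysomes, whereas an mRNA that is poorly initiated, held in other particles or able to carry only few ribosomes sediments in the lighter part of the gradient. RPL24B encodes an L24 protein of the large cytosolic ribosomal subunit, known in Arabidopsis for reinitiation after upstream open reading frames. Whether the mRNAs that wild type loads worst are loaded better, worse or alike in the mutant is the comparison that the design allows for them.

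Of the 150 probe sets 102 could be named and 48 could not, and 6 of those named stand for several loci. In the pool 47.9% were unnamed. The annotation lists 99 of the members as protein-coding, 1 as a pseudogene and 1 as a transcribed pseudogene. A role was taken from the annotation for 34, after their values had been seen. The 96 members with 1 named locus lay on all 5 chromosomes, with 14 to 29 on each. The probe set at rank 149 stood for AT1G18020 and AT1G17990 and had a mean wild-type TL of -1.41, as did the unnamed probe set at rank 150. Just outside were an unnamed probe set and AT2G29670, each also at -1.41. At the edge of the signal minimum, RALFL32 was inside with a TC signal of 7.05, and AT5G01015 (6.95) and AT2G45530 (6.98) were outside. As many as 8 organelle-encoded and 3 ribosomal protein probe sets would have fallen in the range of the members had they not been left out.

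In wild type the members spanned a mean TL from -3.13 to -1.41 with a median of -1.71, which is an NP signal 2.66 to 8.75 times the PL signal after normalization. The median over the pool was 0.19. Replicates differed little, with a median SD of 0.15 among members and 0.16 in the pool, and 148 members were below -1 in all 3 samples. AT5G20700 had the lowest mean, with TL of -3.09, -3.28 and -3.02 in the 3 wild-type samples. It was followed among the named by AT5G47435 at -2.79, -3.15 and -3.19. The next was DI19, a drought-induced nuclear zinc-finger protein, at -2.59, -3.15 and -2.96. The 12 named probe sets with the lowest mean also held RAP2.3, AT5G43460, bZIP9, AT1G35612, AT2G46490, AT4G32240, AT5G66240, AT1G63980 and AT3G18215, and these had means of -2.80 to -2.38. Their TC signals differed widely, from 7.08 for AT4G32240 to 10.50 for DI19, although signals of different probe sets are not comparable as amounts of mRNA.

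The rpl24b samples took no part in the choice, and the same mRNAs ranked low in TL there. Their median TL in rpl24b was -1.69, where the pool had 0.16. It was -1.70, -1.63 and -1.76 in the 3 rpl24b samples, so no sample decided the value. Within the pool, 130 of the 150 members were among the lowest 5% of TL in rpl24b, at -1.13 or lower. In a limma test of rpl24b TL against 0, adjusted over all probe sets, 147 members were below 0 at an adjusted p under 0.05, beside 19.7% of all probe sets and 24.2% of the pool. The 0 of this test is set by the normalization, so it gives a position relative to other mRNAs and not a degree of loading. The 3 others were AT1G35612, AT1G02300 and CNGC12. A mean TL of -1 or lower in rpl24b was found for 137 members and for 6.58% of the pool. When the rule was applied to rpl24b itself, 94 probe sets were in both lists of 150, which is 62.7% of each list, and 115 members were among the lowest 300. Another 23 members had a TC signal under 7 in rpl24b and so could not enter, which is 15.3% of members, and so did 513 of the pool.

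**Figure D1:**
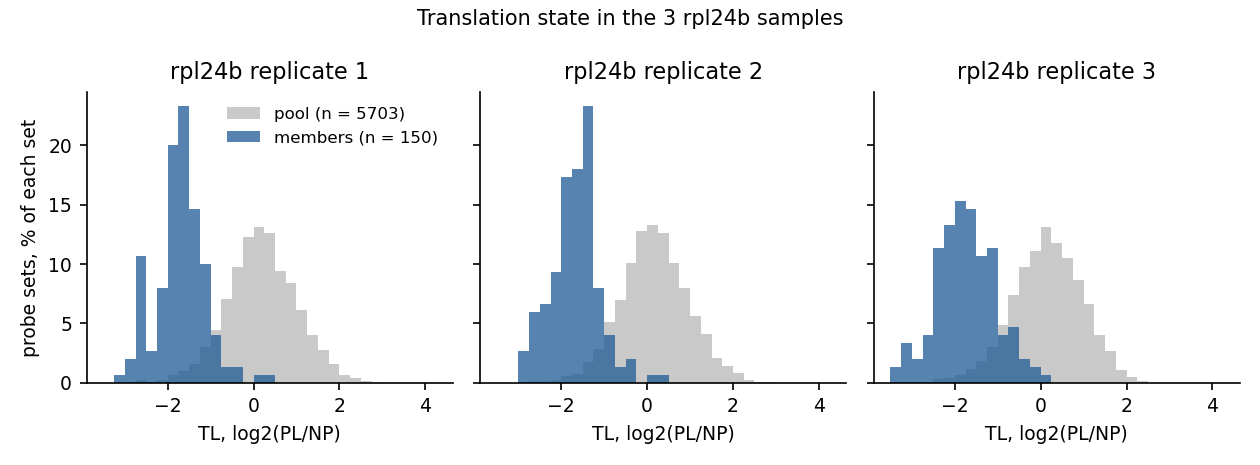
Histograms of TL, log2(PL/NP), in each of the 3 rpl24b plant samples for the 150 members (blue) and the pool of 5703 abundant probe sets (grey, members included), as a percentage of each set. In each sample the members lie to the left of the pool, with medians of -1.70, -1.63 and -1.76.

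The mRNAs of 3 transcription factors, DI19, RAP2.3 and bZIP9, were at ranks 4, 6 and 9 of the 150. RAP2.3, an AP2/ERF factor of the ethylene response, had wild-type TL of -2.54, -3.06 and -2.80 and rpl24b TL of -2.72, -2.68 and -2.94. DI19 had -2.78, -2.79 and -3.11 in rpl24b. For each of these genes the 6 samples overlapped and the means of the genotypes differed by 0.02 or less. bZIP9, a basic leucine zipper factor, had -2.44, -2.88 and -2.63 in wild type and -2.59, -2.17 and -2.20 in rpl24b, which also overlapped. TAF10, a subunit of the general factor TFIID, was less extreme, at -1.66, -1.22 and -1.60 in wild type and -1.02, -0.94 and -1.08 in rpl24b. Its rpl24b samples were all above its wild-type samples, but the change of 0.48 did not pass limma (adjusted p = 0.28).

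Among mRNAs for RNA-binding proteins, PAB2 encodes a poly(A)-binding protein, which joins the mRNA tail to the initiation machinery. PAB2 had TL of -1.75, -1.85 and -1.80 in wild type and -1.65, -1.41 and -1.48 in rpl24b. These values did not overlap, and the difference of 0.29 ± 0.16 (SE) did not pass limma (adjusted p = 0.51). MAC3B, a subunit of a spliceosome-associated complex, had a mean of -1.56 ± 0.24 (SD, n = 3) in wild type and -1.09 ± 0.28 in rpl24b. For PRH75, an RNA helicase, the 3 wild-type values were -1.39, -1.64 and -1.24 and those in rpl24b were -1.03, -0.82 and -0.35. S-RBP11, a small RNA-binding protein, had means of -1.56 and -1.36. All 4 mRNAs given this role had a higher mean TL in rpl24b, by 0.20 to 0.69, and 0 of the 4 passed the test. A higher mean of any size was found for 88 of the 150 members and 2779 of the 5703 in the pool. The upper quartile of the change was 0.30 over the members and 0.18 over the pool, and a link to the role was not tested. The role was assigned by hand after values were seen, so these 4 need not be all members of this kind.

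PAB2 was also the lowest of the 11 probe sets for translation factors in the pool. These had a median TL of -0.92 in wild type and -0.25 in rpl24b, and the median of their changes was 0.35. A higher mean in rpl24b was found for 9 of the 11, beside 2779 of 5703 in the pool. Of the 11, 0 passed both the adjusted p and the 2-fold threshold. The 2 related genes PAB8 and PAB4 were outside the 150. PAB8 had TL of -1.15, -1.33 and -0.94 in wild type and -0.37, -0.35 and -0.04 in rpl24b, and PAB4 had means of -0.98 and -0.62. The change of PAB8, 0.89, had an adjusted p of 0.043 by limma and was under 2-fold. Of the 9 probe sets in the pool for genes with known upstream open reading frames, 0 were members, and their median wild-type TL was 0.13. The lowest of them, at -1.41, was just outside the limit, and as the members are 2.63% of the pool, nothing is read from a count of 0 among 9.

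Among genes of protein turnover, UBC8 and UBC28 encode ubiquitin-conjugating enzymes. UBC8 had TL of -2.16, -2.52 and -2.38 in wild type and -1.91, -2.60 and -2.37 in rpl24b, overlapping throughout. UBC28 had -1.77, -2.35 and -1.81 in wild type and -1.84, -1.05 and -0.96 in rpl24b, where replicate 1 was as low as wild type. The probe set for CDC20.2 and CDC20.1, activators of the anaphase-promoting complex, had means of -1.52 and -1.82. AT1G02300, a cysteine proteinase, behaved unlike these and is described with the changes in TL.

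Of 5 mRNAs for secreted proteins, 3 encode signalling peptides. STOMAGEN, which promotes the formation of stomata, had TL of -1.82, -1.29 and -1.63 in wild type and -1.75, -1.41 and -1.52 in rpl24b. RALF23, a rapid alkalinization factor, had -1.54, -1.69 and -1.36 in wild type and -1.65, -1.81 and -1.35 in rpl24b. The genotypes overlapped for both peptides. RALFL32, a related peptide, had -2.22, -2.21 and -2.00 in wild type and -1.72, -1.53 and -1.74 in rpl24b. Its groups did not overlap, and the difference of 0.48 did not pass limma (adjusted p = 0.25). LTP7, a lipid transfer protein, and AT5G24620, of the thaumatin superfamily, had wild-type means of -1.44 and -1.58.

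Membrane proteins were represented by the SNARE proteins VTI12 and VAMP11, the metal transporter MTP11, the ion channel CNGC12 and HVA22C. VTI12 had TL of -2.18, -2.11 and -2.05 in wild type and -1.77, -2.00 and -1.94 in rpl24b, and VAMP11 had means of -1.75 and -1.88. MTP11 had means of -1.57 and -1.13, and HVA22C of -1.49 and -1.13. The samples of MTP11 did not overlap between genotypes, nor did those of HVA22C, and neither change passed limma (adjusted p = 0.32 and 0.41).

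The 10 genes of metabolism had wild-type means from -2.35 to -1.42 and rpl24b means from -2.64 to -1.09. TPS-CIN, a cineole synthase read by a probe set of 2 loci, had -2.20, -2.51 and -2.34 in wild type and -1.87, -1.75 and -1.80 in rpl24b. GDPD4, a glycerophosphodiester phosphodiesterase, had -2.07, -2.22 and -2.26 in wild type and -1.01, -1.35 and -1.28 in rpl24b. Its difference of 0.97 ± 0.17 (SE) had an adjusted p of 0.022 by limma and was just under 2-fold. AT3G61200, of the thioesterase superfamily, was lower in rpl24b, at -2.70, -2.75 and -2.48 against -2.34, -2.23 and -2.30, with an adjusted p of 0.41. FBA5, a fructose-bisphosphate aldolase, had means of -1.43 and -1.42, and CaS, a chloroplast calcium-sensing protein, had -1.60 and -1.38. GLX2-5, HL, STR16, AT1G06640 and AT1G77370 had wild-type means between -1.92 and -1.42.

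ML3, a MEI2-like gene that the annotation lists as a transcribed pseudogene, had TL of -2.01, -1.90 and -2.09 in wild type and -2.61, -2.02 and -2.58 in rpl24b, so that its samples overlapped. AT1G35612, a pseudogene of an Ulp1 protease family gene, was the other member of that kind and is described next.

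**Figure D2:**
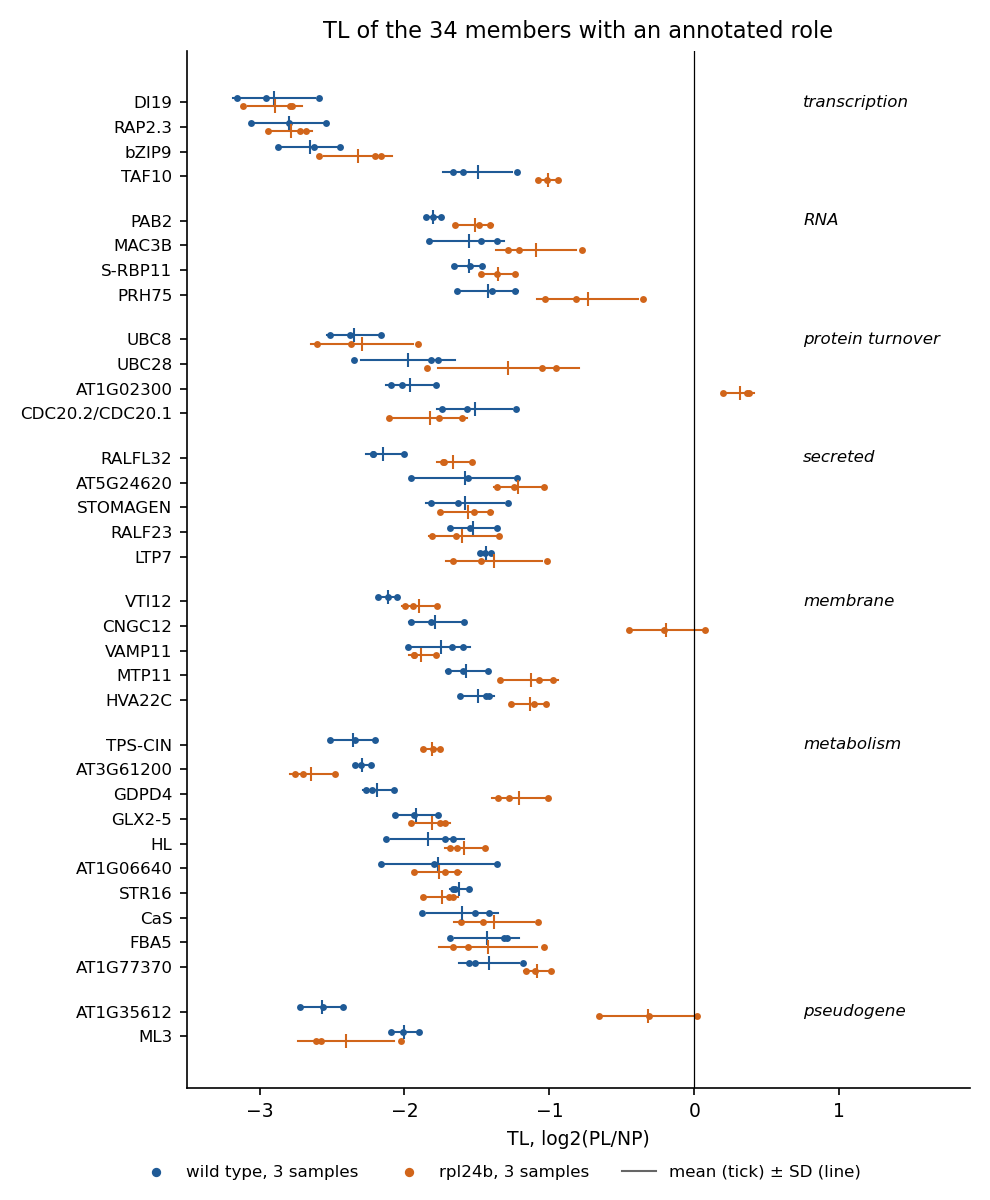
TL, log2(PL/NP), of the 34 members with a role in the annotation, by role, in 3 wild-type (blue) and 3 rpl24b (orange) plant samples as points, with the mean as a tick and the SD as a line. AT1G02300, AT1G35612 and CNGC12 lie near 0 in rpl24b, while the other members stay to the left of 0 in both genotypes.

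The median change in TL over the members was 0.04 (rpl24b minus wild type), beside -0.01 over the pool and -0.06 over all probe sets. Within replicate numbers, for mutant and wild type grown side by side, the median was -0.02, 0.19 and 0.00, highest in replicate 2. It ran from 0.01 without wild-type replicate 2 to 0.11 without wild-type replicate 1 when 1 sample was left out, and was 0.16 with each array centred on its median. As wild-type TL chose the members, a low chance value in wild type alone would give a change above 0. The members were therefore chosen again from 2 wild-type samples, and the mean of the 3 rpl24b samples was compared with the wild-type sample left out. The median change was then -0.01, 0.10 and 0.03 for replicates 1, 2 and 3, beside 0.02, -0.04 and -0.01 in the pool. With the rpl24b sample of the same number it was -0.04, 0.14 and 0.02, beside 0.04, -0.04 and -0.02 in the pool. TL was within 0.5 of its wild-type value for 126 members (84%, against 91.1% of the pool). It was higher by more than that in 21 and lower in 3.

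**Figure D3:**
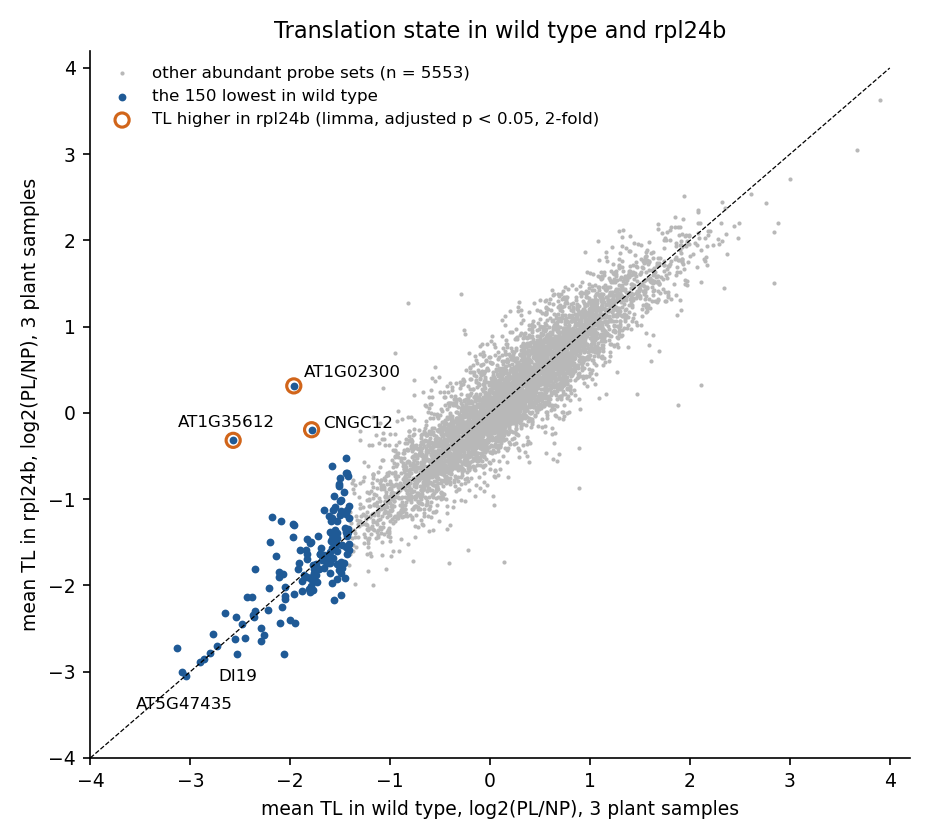
Mean TL in rpl24b against mean TL in wild type, each log2(PL/NP) over 3 plant samples, for the 150 members (blue) and the other 5553 probe sets of the pool (grey), with the line of equality dashed. Most members lie along the line, and the 3 ringed probe sets, whose TL was 1.59 to 2.28 higher in rpl24b, lie above it. Of these, AT1G35612 and CNGC12 had PL and NP signals in rpl24b below the median of all probe sets.

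Of the 150 members, 3 changed in TL by at least 2-fold at an adjusted p under 0.05 (limma), all towards higher TL in rpl24b, while 0.607% of all probe sets and 0.421% of the pool were called in either direction. No member was called lower, beside 0.356% of all probe sets, and at an unadjusted p under 0.05 there were 28 members higher, beside 5.09%, and 5 lower, beside 7.41%. Of the 3 called, AT1G35612 and CNGC12 passed the signal minimum in wild type but had PL and NP signals in rpl24b below the median of all probe sets, and 1 call was left without them. With the adjusted p alone, 5 members were higher, beside 0.448% of all probe sets in that direction. The samples of rpl24b lay above all wild-type samples for 36 members, or 24%, beside 7.06% of all probe sets and 12.5% of the pool, and below them for 15, or 10%, beside 11% and 12.7%. Since wild-type TL is in both the choice and the change, nothing is read from these shares.

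AT1G02300, a cysteine proteinase, moved from a low TL to one near the median of the pool. Its TL was -1.78, -2.02 and -2.09 in wild type and 0.38, 0.36 and 0.20 in rpl24b, a change of 2.28 ± 0.17 (SE, adjusted p = 0.00014, limma). Its PL signal was 5.50, 5.36 and 5.44 in wild type and 8.04, 7.86 and 8.10 in rpl24b. NP went from 7.29, 7.38 and 7.53 to 7.67, 7.50 and 7.90, and this difference of 0.29 was not called (adjusted p = 0.32). TC rose by 1.99 (adjusted p = 8.4e-06). The increase was thus measured in TC and in polysomes, and the groups did not overlap in either.

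AT1G35612 and CNGC12, an ion channel gene linked to plant immunity, had another pattern of signals. The TL of AT1G35612 was -2.43, -2.72 and -2.56 in wild type and -0.31, 0.02 and -0.66 in rpl24b, a change of 2.25 ± 0.20 (adjusted p = 0.00035, limma). Its TC signal fell by 4.11, from 7.49, 7.08 and 7.13 to 2.76, 3.32 and 3.29. The rpl24b signals were 2.40 to 2.89 in PL and 2.63 to 3.54 in NP. CNGC12 had TL of -1.59, -1.82 and -1.95 in wild type and 0.07, -0.45 and -0.21 in rpl24b, a change of 1.59 ± 0.19 (adjusted p = 0.0017, limma). Its TC signal fell by 4.48, from 8.36, 8.03 and 7.89 to 3.77, 3.70 and 3.36, and its rpl24b signals were 2.72 to 2.97 in PL and 2.89 to 3.31 in NP. These were the only members whose PL and NP means in rpl24b were both below 4.94, the median over all probe sets and PL and NP arrays. AT1G35612 had rpl24b means of 2.64 in PL and 2.96 in NP, and CNGC12 of 2.85 and 3.05. These lay below the lower quartile of all probe sets in rpl24b, 3.25 in PL and 3.34 in NP. What a signal this low does to TL was not tested.

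**Figure D4:**
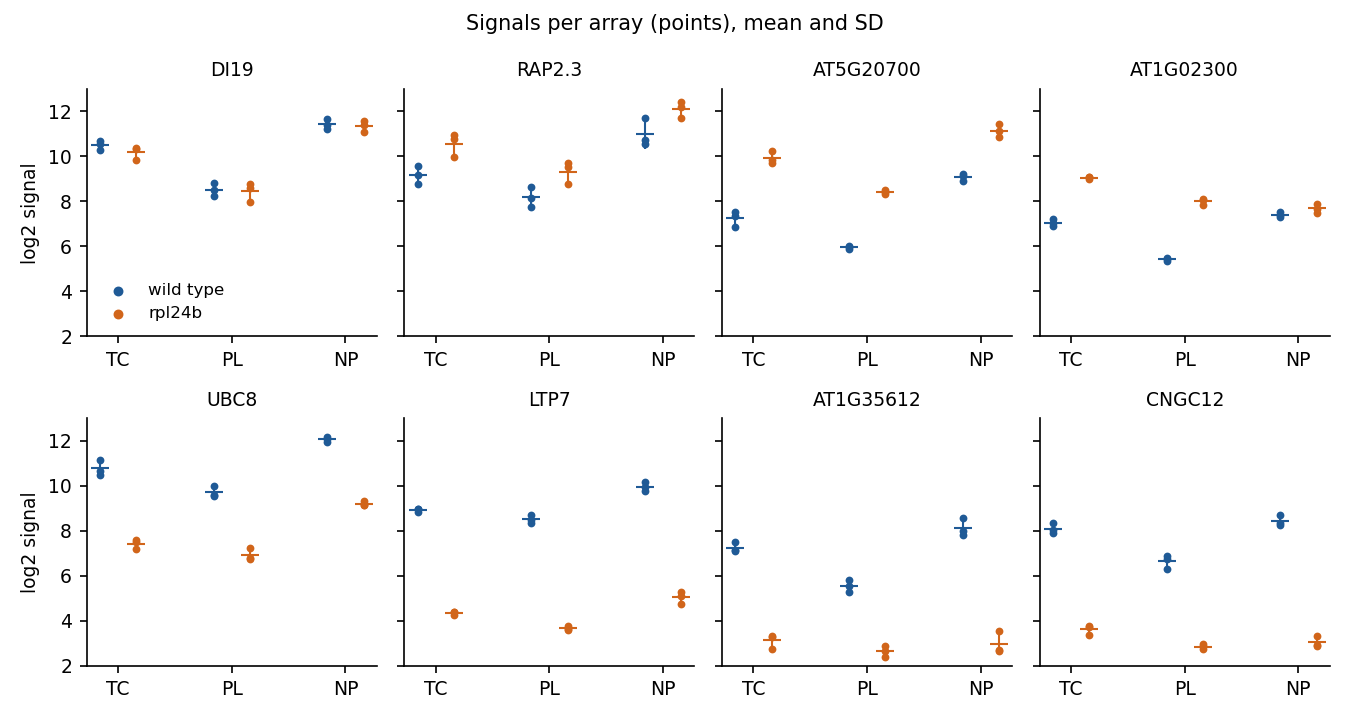
Log2 signals of TC, PL and NP for 8 members in wild type (blue) and rpl24b (orange), each point 1 array, with the mean and SD of 3. DI19 keeps its signals, RAP2.3 and AT5G20700 are higher in all fractions, AT1G02300 is higher in TC and PL, and UBC8, LTP7, AT1G35612 and CNGC12 are lower in all.

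More members were called in TC than in TL. In TC 16 members were called, 3 higher and 13 lower in rpl24b, beside 2.91% of all probe sets and 3.26% of the pool in either direction. Higher calls were 1.49% of all probe sets. Lower calls were 1.41% of all probe sets and 2.38% of the pool, and 8.67% of members. In PL 11 were called, beside 2.88% of all probe sets, with 3 higher (beside 1.71%) and 8 lower (beside 1.17%). In NP 20 were called, beside 3.47%, with 3 higher (beside 2.11%) and 17 lower (beside 1.36%), or 1 higher and 22 lower with each array centred on its median. Over all members the median change was -0.21 in TC, -0.15 in PL and -0.19 in NP, where the pool had -0.06, -0.05 and -0.04. All 16 members called in TC moved the same way in PL and in NP, and 10 of them were called in all 3. The fractions come from the same plants. The minimum signal in wild type was part of the rule, and so was wild-type TL, which is PL minus NP. These counts therefore describe the members only, and no share of the pool is given for PL and NP. In 128 members 0 of the 4 measures was called, but the share of the pool called in none was not counted, so nothing is read from this.

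Several members changed strongly in TC with a small change in TL. LTP7 had TC signals of 8.97, 8.97 and 8.85 in wild type and 4.27, 4.37 and 4.37 in rpl24b, a fall of 24.2-fold (adjusted p = 2.9e-08, limma). Its TL was -1.44, -1.48 and -1.40 in wild type and -1.47, -1.67 and -1.02 in rpl24b, where its PL signal was 3.61 to 3.74, also below that median of 4.94. In all, 5 members had a mean PL signal below it in rpl24b, the others being AT1G35612, CNGC12, TPS-CIN and AT1G19485. UBC8 had TC signals of 11.16, 10.66 and 10.50 in wild type and 7.60, 7.51 and 7.17 in rpl24b, 10.2-fold lower (adjusted p = 1.2e-05), while its mean TL was -2.35 and -2.29. Neither gene had overlapping TC samples. For these falls, as for every change between wild type and rpl24b given here, higher or lower, strain and genotype may not be told apart.

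Increases at low TL were seen as well. AT5G20700, the probe set with the lowest wild-type TL, had TC signals of 6.88, 7.53 and 7.36 in wild type and 9.86, 9.72 and 10.24 in rpl24b, which is 6.42-fold higher (adjusted p = 5.4e-05, limma). Its TL in rpl24b was -2.63, -2.52 and -3.02, so its TC signal was higher while its TL stayed low. RAP2.3 rose 2.62-fold in TC, from 9.18, 9.59 and 8.77 to 10.98, 10.76 and 9.97 (adjusted p = 0.011), and its TL differed by 0.02. AT1G72030 had an NP signal higher by 1.01 (adjusted p = 0.0019) and was the third member called higher in NP. Its TL was -1.97, -1.88 and -2.02 in wild type and lower in rpl24b, at -2.32, -2.33 and -2.64. These groups did not overlap, and the change did not pass limma (adjusted p = 0.27).

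Other members called lower in TC were TPS-CIN (by 2.25), AT3G47295 (1.68), GDPD4 (1.58), CP5 (1.35), AT1G19485 (1.26), AT1G06640 (1.12), the probe set of AT1G53890 and AT1G53870 (1.12), AT5G43150 (1.07) and AT5G24620 (1.03), all on the log2 scale. CP5 had TL of -1.76, -1.88 and -2.02 in wild type and -1.89, -2.05 and -2.26 in rpl24b. AT3G47295 had means of -2.10 and -2.43. None of these 9 was called in TL.

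**Figure D5:**
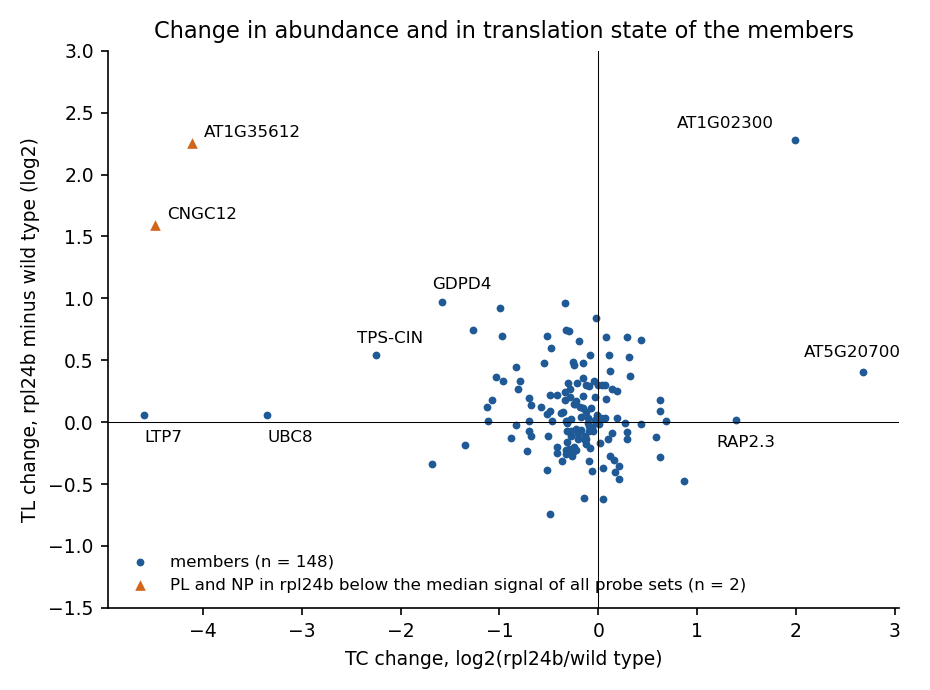
Change in TL (rpl24b minus wild type, log2) against change in TC (log2 of rpl24b over wild type) for the 150 members, with the 2 whose PL and NP signals in rpl24b were below the median of all probe sets as triangles. LTP7, UBC8, RAP2.3 and AT5G20700 changed in TC with a TL change of 0.40 or less, and AT1G02300 was higher in both.

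The highest TL in rpl24b after the 3 called members were those of AT4G25280 and AT3G25150. AT4G25280 had -1.29, -1.46 and -1.59 in wild type and -0.35, -0.37 and -0.86 in rpl24b (adjusted p = 0.048, limma, under 2-fold, and 0.0503 with a replicate block), and its NP signal was lower by 0.99 while PL differed by 0.07. AT3G25150 had -1.54, -1.94 and -1.28 in wild type and -0.90, -0.88 and -0.09 in rpl24b (adjusted p = 0.11). Both probe sets had groups that did not overlap. At the other end, AT5G47435 had -2.86, -2.98 and -3.31 in rpl24b and AT4G32240 had -2.60, -2.50 and -3.28. The 48 unnamed members had a median TL of -1.71 in wild type and -1.65 in rpl24b, and 0 of them was called in TL or TC. As 16 members took their names from gene lists of the study, which were drawn up from changes in these and related samples, having a name and being called are not independent.

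Members with a bright total signal were among these mRNAs too. Those named were CP5, FBA5, UBC8, DI19 and AT1G51200, with TC signals of 10.38 to 11.44 in wild type. AT1G51200 had TL of -1.92, -2.03 and -1.92 in wild type and -2.00, -2.26 and -2.05 in rpl24b, and FBA5 had -1.29, -1.69 and -1.31 and then -1.56, -1.67 and -1.04. A wild-type TC signal of 10 or more, a limit set after values had been seen, was found in 17 members, or 11.3%, against 8.45% of the pool. Among those 17 the median change in TL was 0.20, beside 0.04 over all members. A higher mean in rpl24b was found for 14 of the 17, beside 88 of the 150, and this was not tested.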

How the data were processed

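The authors extracted signals from the arrays with RMA (R/Bioconductor, package affy) and used MAS5 for present calls only; versions are not given in the sources used here. The deposited signals and the deposited translation states are on the log2 scale, and the latter differed from PL minus NP by at most 0.001. TC arrays have another median than PL and NP arrays, so a signal was set only against the same fraction of the other genotype. Depth has no meaning for arrays, whose number limits the precision.

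Changes were tested over all 22746 probe sets with limma 3.58.1 (lmFit and eBayes) in R 4.3.3, 3 samples against 3, and a call needed a change of 2-fold or more besides a Benjamini-Hochberg adjusted p below 0.05, the thresholds of the study. The TL of rpl24b was tested against 0 by the same tool. The script was tested on simulated data. The labels state that replicates were grown at different times with both genotypes together, so replicate numbers pair samples. Deviations of same-numbered samples correlated at 0.14 to 0.39 in TC and 0.05 to 0.28 in PL. In NP they correlated at -0.19 to 0.06, and in TL at -0.05 to 0.03. Samples of different numbers gave -0.36 to -0.03 in TC and -0.24 to 0.12 in PL. They gave -0.14 to 0.16 in NP and -0.03 to 0.08 in TL. The p-values given are from the fit without a replicate term unless a block is named.

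Probe sets were named from the platform list (86 members) and the gene lists of the study (16 members). With 68% of members named, no length or other gene property was compared. Genes in the text follow a rule: the 12 lowest wild-type TL, the 5 highest TC signals, all called in TL, the largest changes in the other measures, the highest and lowest rpl24b TL, the edges, members of the gene lists and the lowest 3 in each role. Roles were assigned by hand from the annotation, because the tables hold no descriptions for the planned keyword classes. The other members with a role and the other members called in TC were added after their values were seen. Members, lists and tests were chosen with earlier results of these data known. Besides translation factors and upstream open reading frames, the lists for metallothioneins (2 probe sets in the pool), clock genes (4), SR proteins (1) and Aux/IAA genes (1) held 0 members, secreted peptides (4) held RALF23, and those for noncoding RNAs, arabinogalactan peptides and JAZ genes had 0 probe sets in the pool. All per-sample columns were used.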

Additional observations from a re-analysis of the deposited data

Results flagged for a closer look

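The relation of PL to NP differed between the genotypes in 3 members by the limma test of the change in TL. It was 2.25 higher in rpl24b for AT1G35612, 2.28 for AT1G02300 and 1.59 for CNGC12, each in 3 of 3 replicates. In rpl24b the PL and NP means of AT1G35612 and CNGC12 were below the median signal of all probe sets, 4.94, so their TL there is a difference of dim signals. Groups of 3 samples were not searched for single samples that stand apart.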

How the results depend on the processing

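The counts of members called in TL, TC, PL and NP (3, 16, 11 and 20) were 3, 16, 11 and 20 with a replicate block as well, and the block changed none of these calls. With the adjusted p alone in TL, AT4G25280 went from 0.048 to 0.0503 with the block and to 0.0531 to 0.203 without 1 replicate, and GDPD4 from 0.022 to 0.0379 and to 0.0241 to 0.13. In TL the count was 5 when each array was centred on its median, 5 with the adjusted p alone and 1 without the 2 members dim in rpl24b, an alternative added after the data were seen. Centred arrays gave 1 higher and 22 lower calls in NP, where 3 and 17 were given otherwise. With the adjusted p alone TC, PL and NP gave 47, 49 and 38. Leaving out 1 replicate gave 3 in TL each time, 14 to 19 in TC, 10 to 13 in PL and 15 to 21 in NP, and 146 to 147 members below 0 in rpl24b. The TC calls of AT1G06640 and AT5G43150 were lost without wild-type replicate 1, and that of AT5G24620 without wild-type replicate 3 or rpl24b replicate 1. The TL changes of GDPD4 and AT4G25280 passed both thresholds when arrays were centred. The median TL in rpl24b was -1.87 with a minimum signal of 6, -1.34 with 8, -1.86 for 100 probe sets, -1.53 for 200 and -1.44 for probe sets of 1 locus. Of the 150 members, 82 stayed with the minimum of 8 and 96 with 1 locus, and 138 to 141 when they were chosen without 1 wild-type replicate. The median change in TL was 0.01 to 0.16 under these settings, the highest with centred arrays, and 0.01 to 0.11 when 1 replicate was left out. It was -0.01, 0.10 and 0.03 against a wild-type sample that had no part in the choice. Protein length was not run, as no protein table was used here.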
